A study of Mus musculus with 6 samples.

Results

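The genes of the PI3K, AKT, MTOR and FOXO pathway were examined in the pancreas of newborn mice with and without miR-216a, a microRNA that the study describes as specific to the pancreas. The members were a list of 37 genes, matched by symbol, out of 35527 genes to which transcript reads were summed. All 37 had enough reads to stand among the 15805 genes tested. They comprised 30 kinases and regulators, from the PI3K subunits to the FOXO transcription factors, and 7 genes that FOXO factors are known to induce. Whole pancreas was collected from C57BL/6 mice at day 1 after birth. Wild-type (WT) mice gave 3 libraries and miR216a-/- mice (KO) gave 3, each labelled with its own donor mouse. The sources used here do not say how the null allele was made, nor the sex or litter of the mice. The comparison of KO with WT asks whether transcripts of this pathway differ when miR-216a is missing.

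Class I PI3K is recruited by activated insulin and growth factor receptors and makes a membrane lipid that brings PDK1 and AKT together, so that PDK1 can phosphorylate AKT. AKT then restrains the TSC complex, GSK3 and the FOXO factors. Restraint of TSC lets RHEB switch on MTOR complex 1, which promotes protein synthesis through the S6 kinases and the 4E-BP proteins, whereas FOXO factors that escape AKT enter the nucleus and induce genes of growth arrest, stress resistance and protein breakdown. In the pancreas the pathway is known for its part in beta cell mass and in the protein synthesis of acinar cells. Most of these steps are phosphorylations, so the mRNA levels reported here measure the amount of transcript and not the activity of the pathway.

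Depth ran from 20565387 to 23028718 estimated reads per library, and a member had between 40 and 5497 reads in a library. Acinar markers, 10 of 10 detected, summed to 107800 to 156600 CPM (estimated reads scaled to library size with TMM factors), as the tissue label implies. The loss of miR-216a itself was not analysed here, so the genotypes rest on the labels. Several libraries stood apart. KO 1 had almost no Y-linked reads, with 0.141 CPM of Ddx3y against a range of 61.8 to 102.2 CPM over the remaining 5. Liver markers summed to 561.5 CPM in WT 1 against 152.4 to 207.8 CPM elsewhere, and erythroid markers were highest in WT 1 (5940 CPM) and KO 2 (4787 CPM). Cell cycle markers, 10 of 10 lower in KO, summed to 733.8, 499.4 and 282.6 CPM in KO 1 to KO 3 and to 977.2 to 1200 CPM in WT, and beta cell markers, 7 of 8 lower, to 4271 to 4587 CPM in KO and 5475 to 6621 CPM in WT. Endothelial markers, 7 of 8 higher in KO, summed to 713.3 to 762.4 CPM in KO and 618.9 to 704.7 CPM in WT. In bulk tissue, fewer cells of a type and less RNA per cell cannot be told apart.

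The sequence that the KO mice lack is shown first, because its seed defines the matches searched for in the members. RefSeq (GRCm38.p6) places mature mmu-miR-216a-5p at chr11:28757018-28757039 on the plus strand, and its 22 bases are printed 5′ to 3′ with the seed, bases 2 to 8, in capitals.
mmu-miR-216a-5p: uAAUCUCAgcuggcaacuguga
The longest annotated 3′ UTR of each gene was searched on the sense strand for the 8mer TGAGATTA, the 7mer-m8 TGAGATT and the 7mer-A1 GAGATTA, the 7mers being counted only outside an 8mer. Of the 37 members, 6 held at least 1 match (16.2%), against 2559 of 15070 tested genes with an annotated 3′ UTR (17.0%). The members with a match were Pik3r1, Akt1s1, Gsk3b, Rps6kb1, Sesn3 and Fbxo32. Members had longer 3′ UTRs, with a median of 3019 bases against 1200, and fewer matches per 1000 bases, 0.079 against 0.123. Sesn3 held 3 matches, the most of any member, in the longest 3′ UTR of the members (7395 bases). Per 1000 bases it held 0.406 matches, fewer than Rps6kb1 (0.519) and Akt1s1 (1.458). Akt1s1 held the lone 8mer. Fbxo32, with the smallest p of any member, held a 7mer-A1. These 5 sites are printed 5′ to 3′ on the strand of the gene, with the match in capitals, and all lie within the annotated 3′ UTR of an exon.
Sesn3, chr9:14327421-14327449 (plus, GRCm38): ctccttttcctTGAGATTttgttccagag
Sesn3, chr9:14329084-14329112 (plus, GRCm38): gaaagctcaagTGAGATTtatataaaggt
Sesn3, chr9:14329421-14329449 (plus, GRCm38): caacaggccaaTGAGATTtttacttcgtg
Akt1s1, chr7:44855378-44855407 (plus, GRCm38): gaggggcgctcTGAGATTAaagttttacct
Fbxo32, chr15:58179685-58179713 (minus, GRCm38): gctgaaccttgGAGATTAcaaacattgta
A match is a description of letters and not a measured binding site. The median log2 fold change, KO over WT, was 0.09 for the 6 members with a match and 0.07 for the 31 without, and 0.04 and -0.0018 for all genes with and without one. Of the 6 with a match, Sesn3 had the lowest log2 fold change of the members (-0.34), and Fbxo32 was higher in each KO library (0.55). The rest had log2 fold changes of 0.40 (Pik3r1), 0.10 (Akt1s1), 0.09 (Gsk3b) and 0.03 (Rps6kb1), each with libraries that overlapped between the groups.

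With edgeR's quasi-likelihood test, 0 of the 37 members passed an adjusted p of 0.05, as did 0 of all 15805 genes (0%). The smallest adjusted p of a member in edgeR was 0.217, for Fbxo32. The means of 27 members were higher in KO and those of 10 were lower, where 51.2% of all genes were higher. At an unadjusted p under 0.05, 5 members were higher in KO (13.5%), against 5.62% of all genes, and 2 were lower (5.41%), against 7% of all genes. The 5 were Klf15, Fbxo32, Foxo3, Foxo1 and Pdpk1, and the 2 were Sesn3 and Pik3cb. The KO libraries all exceeded the WT libraries for 6 members (16.2%), against 9.07% of all genes, and were all below them for 2 (5.41%), against 10.3%. DESeq2 called 3.11% of 13484 genes, 126 of them higher (0.934%) and 294 lower (2.18%), among them 0 members, with Fbxo32 nearest at an adjusted p of 0.0509. When KO 1 was left out, edgeR called 87 of 16091 genes as higher (0.541%) and 275 as lower (1.71%), again with 0 members, and Klf15 came nearest at an adjusted p of 0.0574.

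**Figure D1:**
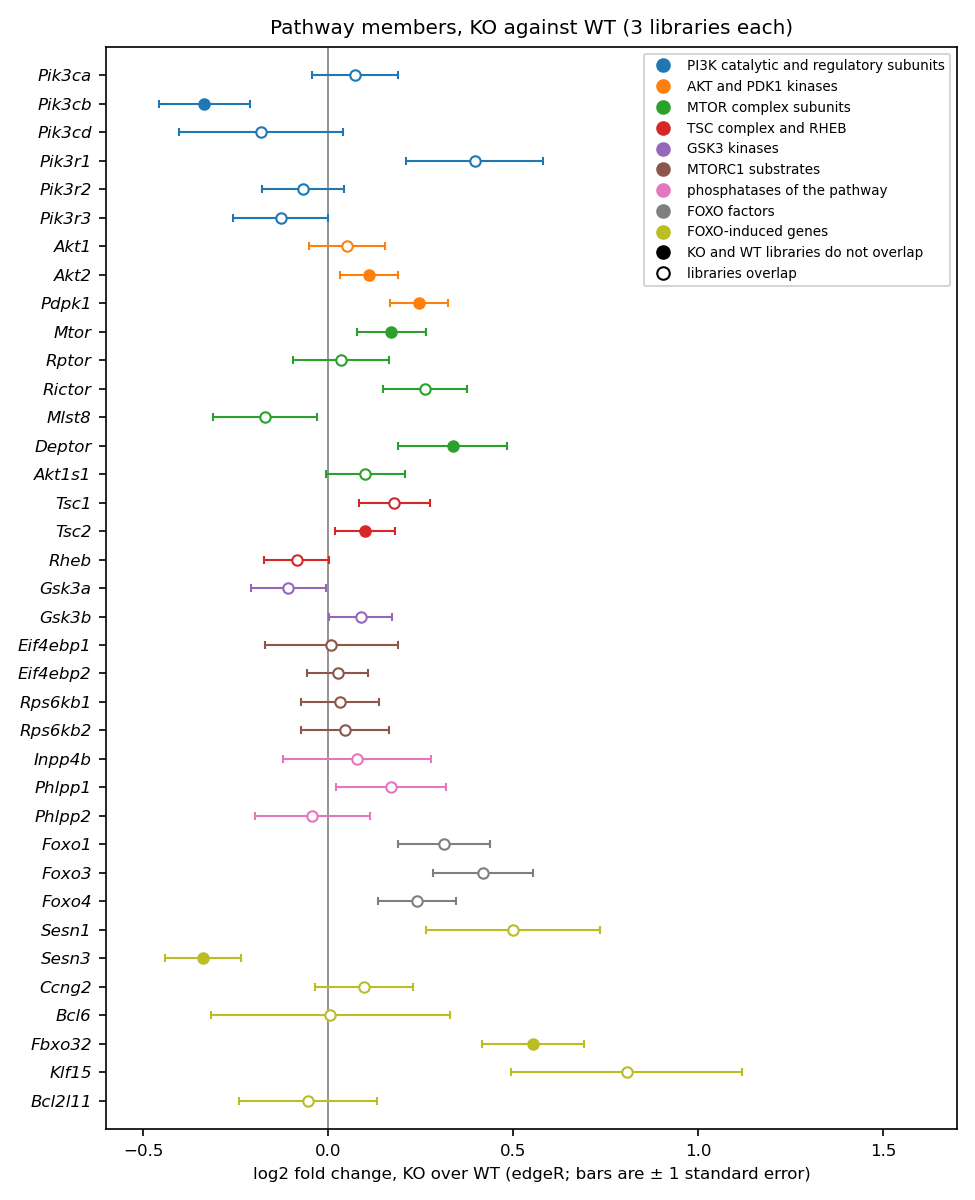
Log2 fold change, KO over WT, of each of the 37 members with its standard error from edgeR, coloured by role, with filled points where the 3 KO libraries do not overlap the 3 WT libraries. Most points lie within 0.2 of 0, while the FOXO factors (0.24 to 0.42) and some FOXO-induced genes (-0.34 to 0.81) lie farther out, none with an adjusted p under 0.05.

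The contrast named in the selection of the members sets the 30 kinases and regulators against the 7 FOXO-induced genes. The median log2 fold change was 0.08 in the first group (22 higher, 8 lower) and 0.10 in the second (5 higher, 2 lower), and 0.0069 over all genes tested. The medians of the groups thus differed by 0.02. The spread was wider in the second group. Kinases and regulators ranged from -0.33 to 0.42, with a median absolute change of 0.11, while the FOXO-induced genes ranged from -0.34 to 0.81, with a median absolute change of 0.34. The median absolute change of all genes was 0.16. Over the libraries, the median log2 ratio of the kinases and regulators to the WT mean was -0.0171, -0.0533 and 0.0199 in WT 1 to WT 3 and 0.03, 0.11 and 0.14 in KO 1 to KO 3. That of the FOXO-induced genes was 0.10, -0.0018 and -0.0574 in WT and -0.0184, 0.19 and 0.29 in KO. The KO libraries lay above the WT libraries for the kinases and regulators, and KO 1 lay within the WT range for the FOXO-induced genes. No test was made of either median, since the members were chosen with results of these data known.

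**Figure D2:**
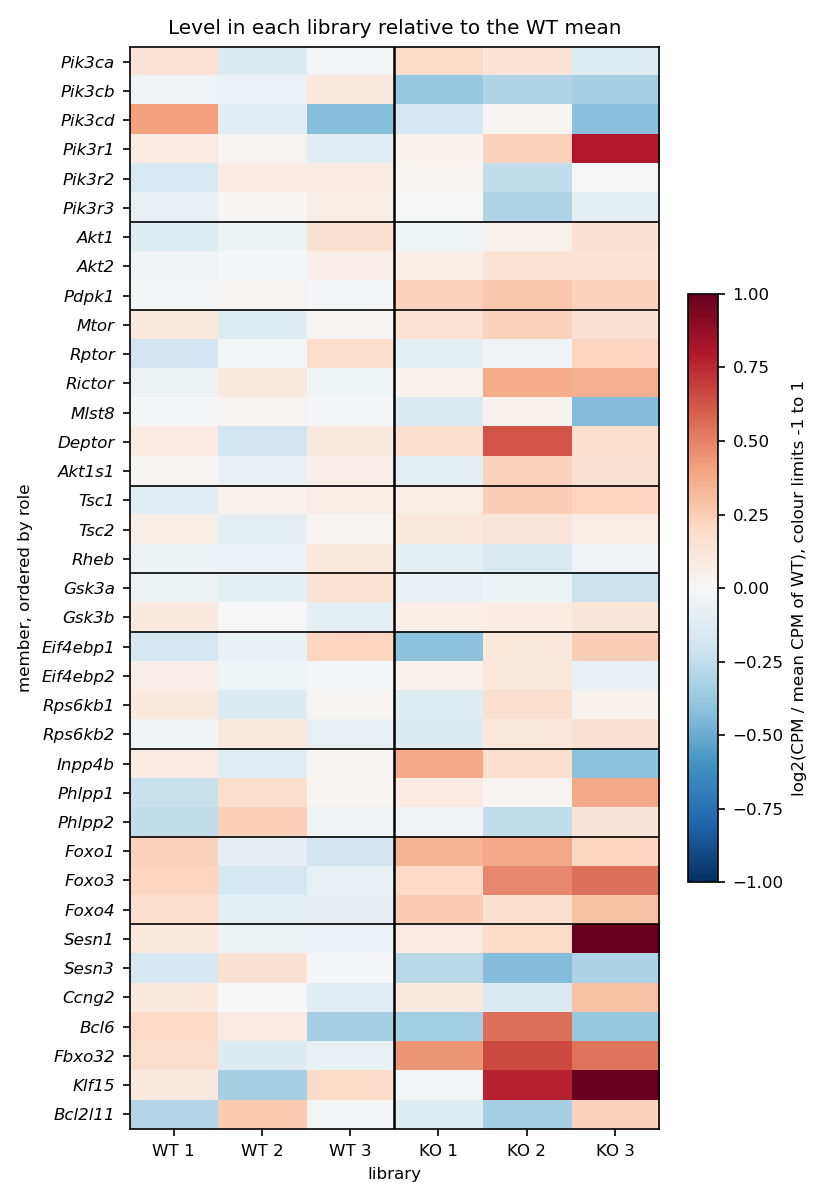
Level of each member in each library as log2 of its CPM over the mean CPM of WT, with members ordered by role and colour limits at -1 and 1. Single libraries stand out for Sesn1, Klf15 and Pik3r1 (KO 3), Deptor (KO 2) and Pik3cd (WT 1), while Pdpk1, Fbxo32 and Sesn3 are alike in all 3 KO libraries.

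Among the PI3K subunits, 2 of 6 were higher and 4 lower in KO, with a median log2 fold change of -0.10. Pik3cb, which encodes the catalytic subunit p110 beta, stood at 11.8, 11.5 and 12.9 CPM in WT 1 to WT 3 and at 9.28, 9.81 and 9.58 CPM in KO 1 to KO 3. All KO libraries lay below all WT libraries (log2 fold change -0.33 ± 0.12 SE, edgeR adjusted p = 0.320). The gene lies on chromosome 9 from 99036654 to 99140621 on the minus strand (GRCm38), and a transcript annotated for nonsense-mediated decay took 70.8% of its reads. Pik3ca, which encodes p110 alpha, was at 48.6 ± 4.58 CPM in WT and 51.1 ± 5.73 CPM in KO (SD, n = 3), a log2 difference of 0.07 that lies within the spread of either group. Pik3cd encodes p110 delta, the catalytic subunit typical of leukocytes, and read 18.2 CPM in WT 1 against 10.2 to 13.8 CPM in the other 5 libraries. WT 1 and KO 2, its highest libraries, also had the highest lymphocyte marker sums, 22.4 and 20.8 CPM against 7.91 to 9.94 CPM. Without WT 1 the log2 fold change of Pik3cd turned from -0.18 to 0.08. The part of lymphocytes in its level was not tested.

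The regulatory subunits hold the catalytic subunits stable and dock them on receptors. Pik3r1, which encodes p85 alpha and its shorter forms, read 91.6, 88.4 and 80.1 CPM in WT and 89.0, 101.7 and 151.4 CPM in KO. KO 3 alone was far above the rest (log2 fold change 0.40 ± 0.19 SE, edgeR adjusted p = 0.437), and without it the log2 fold change was 0.14. Its main transcript, Pik3r1-202, held 95.9% of the gene's reads. Pik3r2 (p85 beta) and Pik3r3 (p55 gamma) had log2 fold changes of -0.07 ± 0.11 SE and -0.13 ± 0.13 SE. Both overlapped between the groups.

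On the length-corrected scale (TPM, as estimated by Salmon), which allows levels of different genes to be compared, Pik3ca was the highest catalytic subunit, with 61.4 to 75.2% of the TPM of the 3 catalytic members in each library. Among the regulatory subunits Pik3r2 came first in all 3 WT libraries (52.6 to 55.1%), while in KO 3 Pik3r1 held 50.6% and Pik3r2 43.3%. Pik3r2 and Pik3r1 had mean levels of 24.3 ± 3.49 and 17.5 ± 2.48 TPM in WT and 24.1 ± 3.39 and 22.5 ± 6.77 TPM in KO (SD, n = 3), so that in KO the order of the pair lay within the spread. Akt1 held 71.7 to 75.5% of the TPM shared by Akt1 and Akt2, with no library outside that order. Gsk3a held 65.7 to 72.6% against Gsk3b, and Eif4ebp1 55.8 to 67.5% against Eif4ebp2. Rps6kb1 held 48.2 to 57.2% against Rps6kb2, and KO 1 was the only library in which Rps6kb2 came out higher. These TPM sums include transcripts of types other than protein coding (nonsense-mediated decay, retained intron or processed transcript), which made up 94.0% of the TPM of Rps6kb2, 76.5% of Pik3cb, 64.5% of Eif4ebp1 and 63.6% of Tsc2. The protein-coding transcript of Eif4ebp1 alone, at 15.75 to 26.15 TPM, lay below Eif4ebp2 (27.07 to 32.95 TPM) in every library. In Rps6kb1 the other types made up 33.4%, so the near equality of the S6 kinases holds only for the summed transcripts.

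**Figure D3:**
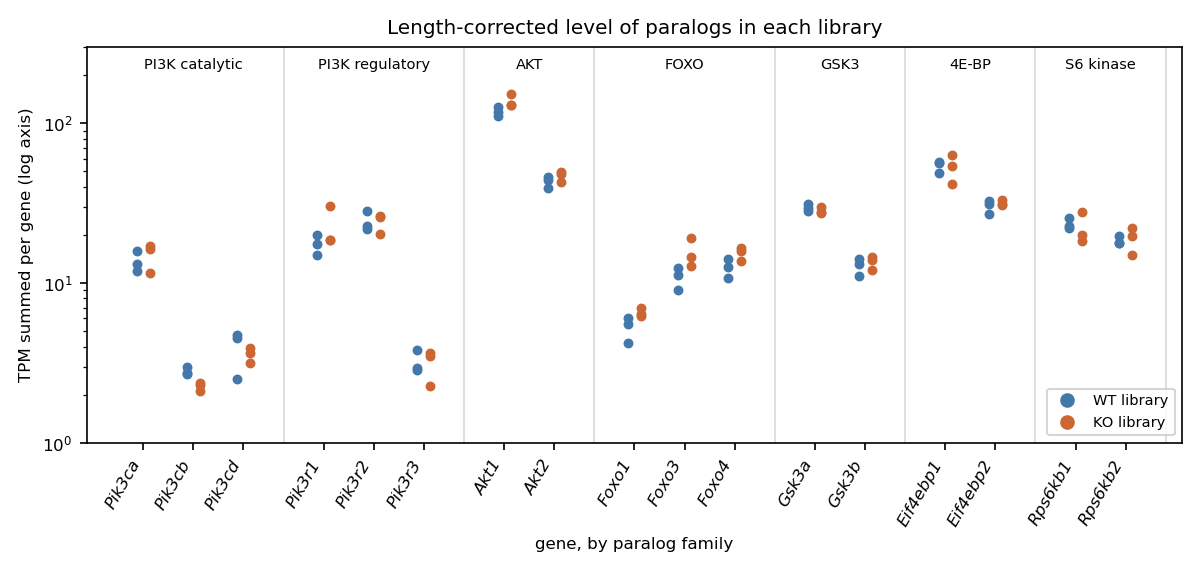
TPM summed per gene (log axis) in each WT and KO library, with the members grouped by paralog family. Akt1 (111.2 to 152.6 TPM) lies above Akt2 (39.4 to 49.6 TPM) in every library, as does Pik3ca above Pik3cb and Pik3cd.

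AKT and PDK1 are the kinases at the centre of the pathway, and 0 of the 3 genes had an adjusted p under 0.05. Pdpk1, which encodes PDK1, stood at 41.8, 43.2 and 41.8 CPM in WT and at 49.7, 51.0 and 49.6 CPM in KO. The SD was 0.79 CPM in WT and 0.80 CPM in KO, far under the difference between the means (log2 fold change 0.25 ± 0.08 SE, edgeR adjusted p = 0.273). In TPM, Pdpk1 overlapped between the groups, at 9.33, 8.77 and 7.50 TPM in WT and 10.38, 8.78 and 10.04 TPM in KO. Its locus is chromosome 17, 24073680 to 24150924, minus strand. Akt2, the AKT form best known for insulin action, read 89.2, 90.3 and 94.9 CPM in WT and 95.2, 100.4 and 100.7 CPM in KO. The groups met almost edge to edge, at 94.9 CPM in WT 3 and 95.2 CPM in KO 1 (log2 fold change 0.11 ± 0.08 SE, edgeR adjusted p = 0.609). In TPM they overlapped, with 39.4 to 46 TPM in WT and 42.95 to 49.57 TPM in KO. Akt1, the form with the highest level, was at 212.3 ± 21.2 CPM in WT and 219.9 ± 14.7 CPM in KO (SD, n = 3). That difference, 0.05 on the log2 scale, was within the spread of the libraries, and it was -0.0061 without WT 1.

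Of the 6 MTOR complex subunits, 5 had a higher mean in KO. Mtor, the kinase shared by both complexes, read 40.8, 35.1 and 38.4 CPM in WT and 41.9, 44.6 and 42.1 CPM in KO, without overlap (log2 fold change 0.17 ± 0.09 SE, edgeR adjusted p = 0.503). In TPM its libraries did overlap, at 6.75, 8.88 and 6.75 TPM in WT and 7.91, 5.98 and 9.22 TPM in KO. Deptor encodes an inhibitor that binds both complexes and read 76.0, 62.7 and 76.2 CPM in WT and 80.0, 110.5 and 80.8 CPM in KO. Its groups did not overlap, but KO 2 set the size: the log2 fold change was 0.34 ± 0.15 SE (edgeR adjusted p = 0.402) and 0.16 without KO 2. Rictor, the scaffold of MTOR complex 2, read 38.2, 42.3 and 38.5 CPM in WT and 40.7, 51.2 and 50.8 CPM in KO, with KO 1 inside the WT range (log2 fold change 0.26 ± 0.11 SE, edgeR adjusted p = 0.398). Rptor, the scaffold of complex 1, had a log2 fold change of 0.03 ± 0.13 SE. Akt1s1, which encodes the complex 1 inhibitor PRAS40 and holds the 8mer printed above, was at 40.3 ± 1.69 CPM in WT and 43.2 ± 5.02 CPM in KO. Mlst8, a subunit of both complexes, was the member of this group with a lower mean in KO, at 14.6 ± 2.37 CPM against 16.4 ± 0.29 CPM, and its lowest library was KO 3 at 12.1 CPM.

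Upstream of MTOR complex 1, the TSC genes and the GTPase they restrain differed by at most 0.18 on the log2 scale, and 0 of the 3 had an adjusted p under 0.05. Tsc2, the subunit that acts on RHEB, read 67.9, 61.1 and 66.6 CPM in WT and 70.3, 70.8 and 68.3 CPM in KO, without overlap (log2 fold change 0.10 ± 0.08 SE, edgeR adjusted p = 0.670). With transcript lengths as an offset that value was -0.0113, so the direction depends on how transcripts are weighted. Tsc1, its stabilising partner, had a log2 fold change of 0.18 ± 0.10 SE, and Rheb, the activator of MTOR complex 1, of -0.0854 ± 0.09 SE. Both overlapped between the groups.

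The GSK3 kinases and the substrates of MTOR complex 1 had small fold changes. The translation repressors Eif4ebp1 and Eif4ebp2 (4E-BP1 and 4E-BP2) had log2 fold changes of 0.0089 ± 0.18 SE and 0.03 ± 0.08 SE, and the S6 kinases Rps6kb1 and Rps6kb2 of 0.03 ± 0.11 SE and 0.05 ± 0.12 SE. The sign of all 4 turned under some other scaling or with a library left out. Eif4ebp1 was the most variable of them, from 32.2 CPM in KO 1 to 50.9 CPM in KO 3. The GSK3 kinases, which AKT inhibits, lay on opposite sides of 0, with log2 fold changes of -0.11 ± 0.10 SE for Gsk3a and 0.09 ± 0.08 SE for Gsk3b. Among the phosphatases that oppose AKT signalling, Phlpp1 had a log2 fold change of 0.17 ± 0.15 SE and Phlpp2 of -0.0427 ± 0.16 SE. Inpp4b, a lipid phosphatase, lay outside the WT range on either side, reading 16.7, 14.4 and 9.66 CPM in KO 1 to KO 3 against 11.9 to 13.6 CPM in WT.

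The FOXO factors, which AKT keeps out of the nucleus, all 3 had higher means in KO, with the largest median log2 fold change of any role among the members, 0.31. Foxo3 read 63.2, 48.2 and 51.6 CPM in WT and 62.2, 75.8 and 79.7 CPM in KO (log2 fold change 0.42 ± 0.14 SE, edgeR adjusted p = 0.275). Foxo1 read 41.6, 33.6 and 31.2 CPM in WT and 44.8, 46.0 and 41.1 CPM in KO (log2 fold change 0.31 ± 0.12 SE, edgeR adjusted p = 0.352). Foxo4, on the X chromosome, read 32.8, 27.3 and 27.7 CPM in WT and 35.0, 32.7 and 35.8 CPM in KO (log2 fold change 0.24 ± 0.11 SE, edgeR adjusted p = 0.405). In each of the 3 genes WT 1 was the highest WT library and lay just above the lowest KO library, and that was the only overlap. Without WT 1, the log2 fold changes were 0.54 for Foxo3, 0.44 for Foxo1 and 0.33 for Foxo4, with edgeR adjusted p-values of 0.260, 0.260 and 0.320. Those were the highest values with any single library left out, and the lowest were 0.34 for Foxo3, 0.23 for Foxo1 and 0.19 for Foxo4. Without KO 1, the library low in Y-linked transcripts, the log2 fold changes were 0.52, 0.30 and 0.23. Endothelial markers, which were higher in KO (7 of 8), had their highest WT sum in WT 1 too, 704.7 CPM against 618.9 CPM in both other WT libraries. Their part in the FOXO levels was not tested.

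Per length, the order of the FOXO genes in WT was Foxo4 (12.5 ± 1.77 TPM), Foxo3 (10.9 ± 1.68 TPM) and Foxo1 (5.25 ± 0.95 TPM). Their SDs overlapped for Foxo4 and Foxo3, but within each WT library Foxo4 was the higher of the pair, with 43.2 to 44.6% of the TPM of the 3 genes. Foxo1 lay below both. In KO, Foxo3 was at 15.5 ± 3.33 TPM and Foxo4 at 15.4 ± 1.47 TPM, with Foxo1 at 6.55 ± 0.38 TPM. The share of Foxo3 in the TPM of the 3 genes was 37.8 to 38.1% in WT and 35.8, 42.0 and 45.6% in KO 1 to KO 3, so KO 2 and KO 3 lay above the WT range and KO 1 below it. Foxo3 lies on chromosome 10 from 42181841 to 42276755 on the minus strand, Foxo1 on chromosome 3 (52268336 to 52353221, plus strand) and Foxo4 on chromosome X (101254528 to 101260873, plus strand).

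**Figure D4:**
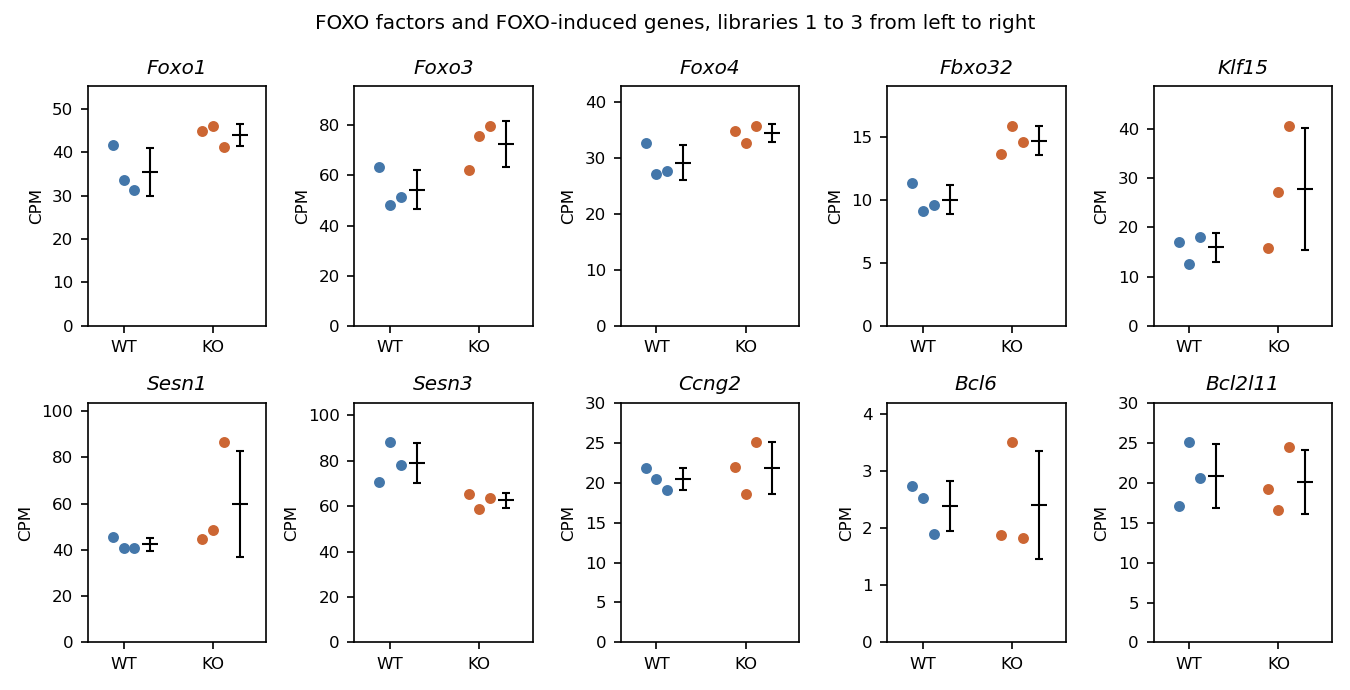
CPM of the 3 FOXO factors and the 7 FOXO-induced genes in each library (points), with the mean and SD of each group (bars) and axes that start at 0. WT 1 is the highest WT library for all 3 FOXO factors, Fbxo32 and Sesn3 separate the groups in opposite directions, and KO 3 sets the mean of Sesn1 and, with KO 2, that of Klf15.

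Of the 7 FOXO-induced genes, Fbxo32 had the smallest p. It encodes atrogin-1, a ubiquitin ligase subunit of muscle protein breakdown, and lies on chromosome 15 from 58175879 to 58214932 on the minus strand. It read 11.4, 9.18 and 9.59 CPM in WT and 13.7, 15.9 and 14.7 CPM in KO, and every KO library was above every WT library. The mean was 10.05 ± 1.17 CPM in WT and 14.7 ± 1.13 CPM in KO (SD, n = 3), a fold of 1.47 (log2 fold change 0.55 ± 0.14 SE, edgeR adjusted p = 0.217). Leaving out any library kept the log2 fold change between 0.49 and 0.65. Skeletal muscle markers, the tissue in which Fbxo32 is best known, summed to 1.80 to 3.35 CPM in KO and to 3.46, 9.10 and 3.18 CPM in WT 1 to WT 3, with 3 of the 8 tested and 3 of those lower in KO. Their part in the Fbxo32 values was not tested.

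Klf15, a transcription factor of fasting metabolism, had the largest fold change of the members but also a wide spread. It read 17.0, 12.7 and 18.1 CPM in WT and 15.7, 27.1 and 40.6 CPM in KO, so KO 1 lay inside the WT range (log2 fold change 0.81 ± 0.31 SE, edgeR adjusted p = 0.338). The value was 0.43 without KO 3 and 1.09 without KO 1. Over the KO libraries the list of 8 adipocyte markers followed the same order, with a sum of 53.9, 95.6 and 116.6 CPM in KO 1 to KO 3. In WT 1 to WT 3 the sum was 48.7, 48.1 and 36.8 CPM. The order did not hold there, since WT 3 was the lowest WT library for the sum and the highest for Klf15. Only 2 of the 8 had enough reads to be tested, and both were above the WT range in all KO libraries. Fabp4, which made up most of the sum in every library, read 44.9, 45.7 and 34.3 CPM in WT and 50.1, 91.9 and 112.2 CPM in KO. Pparg read 2.94, 1.96 and 2.04 CPM in WT and 3.11, 3.15 and 3.51 CPM in KO. The other 6 were at 0.663 CPM or less in each library, with Lep and Cfd at 0 in all. Cell cycle markers ran in the opposite order over the KO libraries. The part of the adipocyte and cell cycle markers in the Klf15 values was not tested.

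The sestrins are stress-induced proteins that hold MTOR complex 1 in check. Neither of the sestrin genes among the members, Sesn3 and Sesn1, had an adjusted p under 0.05. Sesn3 read 70.7, 88.0 and 78.2 CPM in WT and 65.2, 58.6 and 63.7 CPM in KO, and every KO library was below every WT library (log2 fold change -0.34 ± 0.10 SE, edgeR adjusted p = 0.258). In TPM the groups overlapped, since KO 1 (9.87 TPM) lay above WT 1 (9.71 TPM). The gene, on the plus strand of chromosome 9 (14275067 to 14333101), holds the 3 seed matches printed above. Leaving out any library kept its log2 fold change between -0.41 and -0.25. Sesn1 read 45.6, 40.8 and 40.7 CPM in WT and 44.8, 48.5 and 86.4 CPM in KO. KO 3 alone made the mean difference (log2 fold change 0.50 ± 0.23 SE, edgeR adjusted p = 0.437), and without it the value was 0.14.

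The remaining members of the group did not separate the genotypes. Ccng2 encodes the growth-arrest cyclin G2 and read 21.8, 20.4 and 19.0 CPM in WT and 21.9, 18.6 and 25.0 CPM in KO (log2 fold change 0.10 ± 0.13 SE). Bcl6, a transcriptional repressor, was the lowest member, with 40 reads in its shallowest library, and read 2.75, 2.53 and 1.90 CPM in WT and 1.88, 3.51 and 1.84 CPM in KO (log2 fold change 0.0059 ± 0.32 SE). Bcl2l11, which encodes the cell death protein BIM, read 17.1, 25.1 and 20.7 CPM in WT and 19.3, 16.7 and 24.5 CPM in KO (log2 fold change -0.06 ± 0.19 SE). The groups overlapped in all 3 genes. For Bcl2l11 the direction depended on the scale, since the log2 fold change was 0.24 with transcript lengths as an offset.

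Transcripts were described for Sesn1, Bcl2l11, Pik3r1 and Foxo3, members chosen after their transcript values were seen. Klf15, in which KO 3 was also the highest library, is left out of the plot because the estimated split between its transcripts was unstable, with Klf15-204 at 0 TPM in WT 1, WT 2 and KO 1 and at 6.65 TPM in WT 3. Sesn1 has a pair of transcripts with reads, which differ in their starts. Sesn1-201, which starts at 41887439 on chromosome 10 and held 83.2% of the gene's reads, was at 17.3, 18.1 and 14.7 TPM in WT and 17.4, 17.5 and 38.8 TPM in KO. Sesn1-202, which starts at 41809935, was at 3.04, 2.55 and 2.21 TPM in WT and 3.70, 2.64 and 3.32 TPM in KO. The high value of KO 3 thus sat in the transcript from the downstream start. For Bcl2l11, the short transcript Bcl2l11-202 was at 0.86 to 1.15 TPM in WT and 1.12, 1.02 and 3.08 TPM in KO, while Bcl2l11-205, the long one with 78.6% of the reads, was at 3.51 to 5.74 TPM in WT and 3.09 to 4.22 TPM in KO. Bcl2l11 thus also had a transcript that was high in KO 3 alone. Salmon divides reads between overlapping transcripts by estimation, and such a split is less certain than the gene total.

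**Figure D5:**
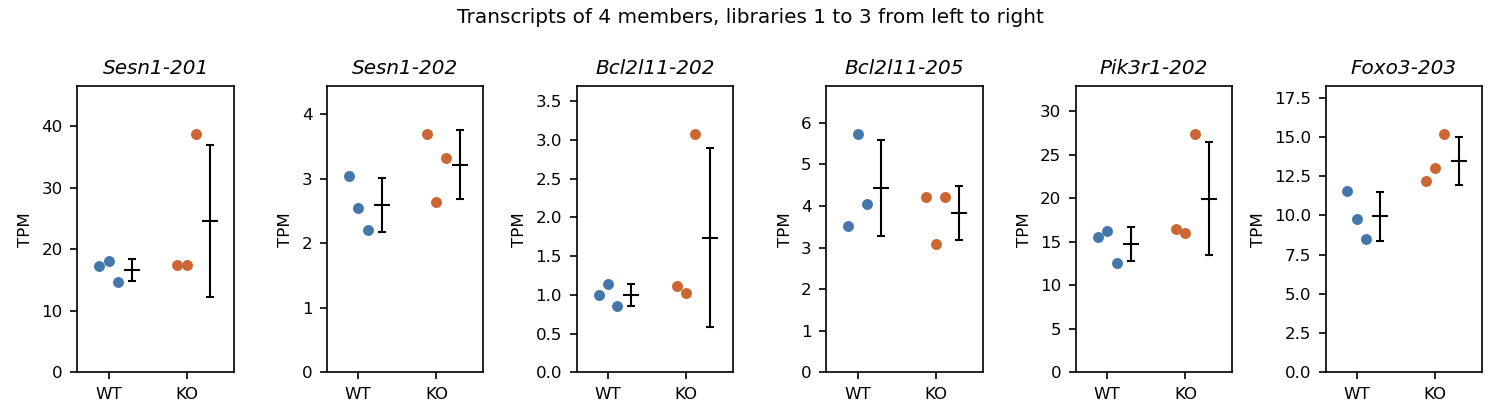
TPM of 6 transcripts of Sesn1, Bcl2l11, Pik3r1 and Foxo3 in each library (points), with the mean and SD of each group (bars) and axes that start at 0. KO 3 stands apart in Sesn1-201, Bcl2l11-202 and Pik3r1-202 but not in Sesn1-202 or Bcl2l11-205, and for the Foxo3 transcript all 3 KO libraries (12.2 to 15.2 TPM) lie above the WT libraries (8.48 to 11.6 TPM).

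Promoter sequence was searched for the FOXO motif GTAAACA on both strands, in RefSeq windows from 250 bases before to 50 after each annotated start (GRCm38.p6). Windows were read for 32 of the 37 members, 45 in all. Windows of Deptor, Eif4ebp1, Rps6kb2, Foxo4 and Fbxo32 were not used here. The motif stood in 3 of the 45 windows (6.67%), against 1199 of 32851 windows of all genes (3.65%). With ATAAACA counted too, the share was the same 3 windows of the members (6.67%) against 2617 windows of all genes (7.97%), so the order of the shares turned with the motif used. By group it stood in 2 of 9 windows of FOXO-induced genes and 1 of 36 windows of kinases and regulators. The holders were Bcl2l11, Sesn1 and Akt1, 3 genes whose libraries overlapped between the genotypes. A window of Bcl2l11 and both windows of Sesn1 are printed 5′ to 3′ on the plus strand, with the match in capitals, because these are the FOXO-induced genes that hold the motif.
Bcl2l11, chr2:128125788-128126087: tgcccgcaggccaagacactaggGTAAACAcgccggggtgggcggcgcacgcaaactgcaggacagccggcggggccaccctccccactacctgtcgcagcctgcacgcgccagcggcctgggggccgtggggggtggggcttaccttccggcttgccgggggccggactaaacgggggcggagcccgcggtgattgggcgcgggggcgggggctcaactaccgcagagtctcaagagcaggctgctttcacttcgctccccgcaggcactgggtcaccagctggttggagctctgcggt
Sesn1, upstream window, chr10:41810324-41810623: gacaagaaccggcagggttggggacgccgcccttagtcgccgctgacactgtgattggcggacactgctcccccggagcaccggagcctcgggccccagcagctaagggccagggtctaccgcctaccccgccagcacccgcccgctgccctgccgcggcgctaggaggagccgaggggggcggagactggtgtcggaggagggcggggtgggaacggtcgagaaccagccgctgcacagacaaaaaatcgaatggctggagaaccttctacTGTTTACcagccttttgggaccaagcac
Sesn1, downstream window, chr10:41887189-41887488: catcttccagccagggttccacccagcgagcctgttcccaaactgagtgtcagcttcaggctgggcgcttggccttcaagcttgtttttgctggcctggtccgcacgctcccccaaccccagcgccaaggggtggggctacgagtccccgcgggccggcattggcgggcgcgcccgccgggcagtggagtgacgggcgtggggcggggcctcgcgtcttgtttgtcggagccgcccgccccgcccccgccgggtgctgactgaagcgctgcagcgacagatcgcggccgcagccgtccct
In Bcl2l11 the match begins at position -227 from the start. In the upstream Sesn1 window it is on the minus strand and begins 22 bases after the RefSeq start. That start lies within the span of Sesn1-202 and not at its GENCODE start, 41809935, so the promoter of Sesn1-202 as quantified was not searched here. The downstream window, at the start of Sesn1-201, the transcript that was high in KO 3, holds no GTAAACA, which says only that these letters are not in that window.

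Other genes of the pathway, from lists that hold none of the members, were counted in the same way. Of 15 further PI3K and AKT pathway genes, 10 had a higher (66.7%) and 5 a lower mean in KO, where 51.2% of all genes were higher. At an edgeR p under 0.05, 3 were higher (20%, against 5.62% of all genes) and 0 lower (against 7% of all genes). Of 32 further MTOR pathway genes, 23 were higher (71.9%) and 9 lower, with 3 higher (9.38%) and 0 lower at that p. Of 18 further FOXO-induced genes, 15 could be tested, and 12 were higher (80%) and 3 lower, with 3 higher (20%) and 0 lower at that p. Median log2 fold changes were 0.08, 0.09 and 0.20, and 0 of these genes had an adjusted p under 0.05. The 3 not tested for low reads were Trim63, Pck1 and G6pc.

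Within these lists, the FOXO-induced genes with an edgeR p under 0.05 and no overlap were Irs2, Insr and Pdk4. Insr, the insulin receptor gene, read 54.5, 46.5 and 50.03 CPM in WT and 64.7, 68.8 and 65.5 CPM in KO (log2 fold change 0.40 ± 0.09 SE, edgeR adjusted p = 0.206). Irs2, its adaptor towards PI3K, read 23.9, 25.9 and 20.7 CPM in WT and 30.2, 35.2 and 35.8 CPM in KO (log2 fold change 0.52 ± 0.12 SE, edgeR adjusted p = 0.206). Pdk4, which restrains pyruvate oxidation, read 20.9, 26.1 and 19.5 CPM in WT and 28.3, 59.1 and 34.2 CPM in KO, with KO 2 far above the rest (log2 fold change 0.87 ± 0.26 SE, edgeR adjusted p = 0.258). These 3 were named because they separated the genotypes, so their separation is not a further result. They were higher in KO, as was Fbxo32, while Sesn3 was lower. Of the 15 tested genes of their list, 12 were higher and 3 lower. Of the PI3K and MTOR lists, Pik3c2a, a class II PI3K (0.36), Inpp5k, a phosphatase of PI3K lipids (0.48), Castor1, an arginine sensor (0.79), and Pdcd4, a translation inhibitor that S6 kinase removes (0.44), met the same rule, each with its log2 fold change in brackets. The lowest value was that of Igfbp1 (log2 fold change -3.00 ± 1.49 SE), a gene also made by liver, which read 16.3 CPM in WT 1, the library with the highest liver markers, and 0.20 to 1.18 CPM in the other 5.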

How the data were processed

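Total RNA of whole pancreas was prepared with a stranded mRNA kit, per the labels' protocols. Per the submitters' processing notes, bcl2fastq, Salmon 0.13.1 and DESeq2 1.24.0 were used with the build mm10. No source used here names the transcript set. Per the file headers, the authors deposited for each library Salmon's estimated counts (not whole numbers, not normalized), TPM and effective length of 116248 transcripts. A table of scaled values per gene that the authors also deposited was not used.

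Of the transcripts, 253 (0.0341 to 0.0458% of the reads) matched no GENCODE M21 identifier and were dropped. Counts of the others were summed to 35527 genes (Python 3.11.15, pandas 2.3.3) and rounded. Genotypes were compared with the quasi-likelihood test of edgeR 4.0.16 (R 4.3.3) with TMM scaling and filterByExpr, which kept 15805 genes, with Benjamini-Hochberg adjustment over all of them and a threshold of 0.05. The biological coefficient of variation was 18.4%. With 3 against 3 libraries, an exact two-sided permutation test cannot give a p under 0.1. TPM was summed per gene. Groups follow the labelled genotype. Replicate numbers only name libraries, in sample order. Full values are given for the FOXO factors, the FOXO-induced genes and members whose libraries do not overlap. Genes of the further pathway lists are named at an edgeR p under 0.05 without overlap. The members, lists and naming rule were chosen with earlier results of these data known. The fits were tested on simulated counts. Alternatives were 3 other scalings, TMM without enzyme genes, 2 filters, DESeq2 1.42.0, limma-voom and limma on log2(TPM + 1) and log2(TPM + 0.1) (limma 3.58.1), an offset for transcript length, omission of each library, and omission of WT 1 with KO 2.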

Additional observations from a re-analysis of the deposited data

How the results depend on the processing

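No member was called under any of the 18 alternatives, and 23 of the 37 members kept the sign of their log2 fold change in all of them. The medians of the kinases and regulators (0.04 to 0.13) and of the FOXO-induced genes (0.05 to 0.25) stayed above 0. No paired analysis was possible because the replicate numbers only follow sample order and the labels pair no mice. Counts of called genes over the whole table, 0 in each direction, became 126 higher and 294 lower with DESeq2, 1 and 1 with limma-voom, 1 and 1 without WT 1 and KO 2, and 1 lower with library size only, with no filter and with log2(TPM + 0.1). Leaving out single libraries gave 0 to 87 higher and 0 to 275 lower, the highest without KO 1. The cause was not tested.

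The 14 members whose sign turned had small changes, at most 0.18 in size. Leaving out WT 1 with KO 2 gave -0.0058 for Akt1, -0.0218 for Rptor, -0.12 for Eif4ebp1 and -0.25 for Bcl6. Upper-quartile factors gave -0.0167 for Eif4ebp1 and -0.0174 for Bcl6. Library size only gave -0.0223 for Eif4ebp1, -0.0089 for Eif4ebp2, -0.0027 for Rps6kb1 and -0.0537 for Bcl6. Limma-voom gave -0.0068 for Eif4ebp1 and -0.0582 for Bcl6. The 2 TPM scales, with 1 and with 0.1 added, gave -0.0433 and -0.0444 for Eif4ebp1, -0.10 and -0.11 for Rps6kb1, -0.0472 and -0.0739 for Inpp4b, and 0.23 and 0.25 for Bcl2l11. The length offset gave -0.0113 for Tsc2, -0.0526 for Eif4ebp1, -0.12 for Rps6kb1, -0.05 for Inpp4b and 0.24 for Bcl2l11. Leaving out single libraries gave ranges of -0.0061 to 0.14 for Akt1, -0.0672 to 0.14 for Rptor, -0.13 to 0.18 for Eif4ebp1, -0.0172 to 0.0684 for Eif4ebp2, -0.0403 to 0.10 for Rps6kb1, -0.0079 to 0.13 for Rps6kb2, -0.10 to 0.28 for Inpp4b, -0.15 to 0.093 for Phlpp2, -0.35 to 0.0756 for Pik3cd, -0.14 to 0.0091 for Pik3r2, -0.0115 to 0.20 for Ccng2, -0.36 to 0.17 for Bcl6 and -0.22 to 0.10 for Bcl2l11. Bcl6 had the fewest reads of the members, 40 in its shallowest library.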
